A study of Ipomoea batatas with 12 samples.

Results

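A group of 100 sweet potato (Ipomoea batatas) leaf genes was low in 1 library of each of 3 treatments. They were chosen by their counts. Each library's counts were scaled to a total of 1000000 (CPM), and the level of a gene was log2(CPM + 0.5). A gene entered the group when its mean over the 12 libraries was at least 1 CPM and when its level in each of IbPep1 replicate 3, IbHypSysIV replicate 4 and water replicate 3 lay at least 0.8 below the mean of the other 3 libraries of that treatment. A distance of 0.8 on this scale is 1.74-fold. Of 32301 gene identifiers, 20787 reached the mean of 1 CPM, and the 100 members are 0.481% of these. Because the distances in these 3 libraries chose the members, they are given below as a description, with no test.

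Messenger RNA was sequenced from the third leaf of plants of cultivar Tainong 57 raised from scions. Leaves had received IbPep1, IbHypSysIV or water for 1 h, with 4 libraries per treatment. All groups share the cultivar, the leaf position and the treatment time, and water is the control. The labels state neither plant age beyond the growth period nor whether the replicates of a treatment are different plants. The p-values below therefore reflect the spread between samples alone, and that spread may be technical. Libraries were grouped by source name. For the 4 IbPep1 libraries another field of the labels gives the treatment as IbPep1, IbPep2, IbPep3 or IbPep4, 1 for each, with no explanation. Replicates are numbered in accession order.

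Both peptides carry the names of plant signalling families. Hydroxyproline-rich systemins are secreted peptides that were found in tobacco and can switch on defence genes in leaves. Plant elicitor peptides, known best from Arabidopsis, are released from larger precursor proteins when cells are damaged, are perceived by receptor kinases at the cell surface and act as damage-associated molecular patterns. In leaves such signals are known to raise the transcripts of defence genes and to lower those of other processes within hours. A transcript level in a whole leaf is an average over its cell types, so fewer cells of a type and less RNA per cell cannot be told apart.

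The identifiers in the counts carry no gene names, and 0 of 32301 matched the reference gene table. What the members encode is therefore not described, no sequence is printed, and the leaf label could not be set against marker genes. Each identifier printed is uncertain where near-identical gene copies share reads or where genes overlap, since strand handling is not given in the sources used here.

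The 3 libraries used by the rule stood apart in several ways. Across all genes, their mean correlation with the other libraries of their own treatment was 0.956 in IbPep1 replicate 3, 0.956 in IbHypSysIV replicate 4 and 0.940 in water replicate 3, against 0.963 to 0.972 in the 9 other libraries. They held the most genes at least 0.8 above their treatment, at 1468, 1653 and 2120 genes in the same order, against 110 to 672 in the other 9. The same did not hold for low genes. IbPep1 replicate 3 had 971 genes at least 0.8 below its treatment and IbHypSysIV replicate 4 had 776, whereas IbPep1 replicate 4 had 1019 and IbHypSysIV replicate 2 had 1975. Only in water was the library of the rule also the one with the most low genes, at 1608.

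Composition moved with these libraries, and depth did so in 1 of them. Total counts ran from 16607188 to 23153078 in the 3 libraries and from 19862106 to 25073251 in the other 9, with IbHypSysIV replicate 4 the shallowest and the other 2 inside the range of the 9. The most abundant gene, itf03g07980, took 1.61% to 2.29% of the counts in the 3 libraries and 2.79% to 3.87% in the other 9. TMM scaling factors were 1.036 to 1.095 in the 3 and 0.914 to 1.041 in the 9. These ranges overlapped, with 1.041 in IbHypSysIV replicate 1 and 1.036 in IbHypSysIV replicate 4. The part of depth and composition in the low levels of the members was not tested. The median gene lay 0.15 above its treatment in IbPep1 replicate 3, 0.11 above in IbHypSysIV replicate 4 and 0.11 above in water replicate 3, so the members were low against a background that was slightly high. In the other 9 libraries the median gene lay between -0.12 and 0.09, the highest being IbHypSysIV replicate 1.

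Together the members took a smaller part of the counts in the 3 libraries. Their summed share was 0.590% in IbPep1 replicate 3, against 1.35%, 1.28% and 1.43% in IbPep1 replicates 1, 2 and 4. It was 0.392% in IbHypSysIV replicate 4, against 1.02%, 1.23% and 1.15% in IbHypSysIV replicates 1, 2 and 3. It was 0.532% in water replicate 3, against 1.22%, 1.48% and 1.15% in water replicates 1, 2 and 4. Each library of the rule lay below every other library of the series. Among the other 9, the IbPep1 libraries lay above the IbHypSysIV libraries and the water libraries overlapped with both. The share was 2.30-fold lower than the mean of the other 3 in IbPep1 (1.36% ± 0.0765, SD, n = 3), 2.89-fold lower in IbHypSysIV (1.13% ± 0.108, SD, n = 3) and 2.41-fold lower in water (1.29% ± 0.175, SD, n = 3). These folds follow from the rule.

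**Figure D1:**
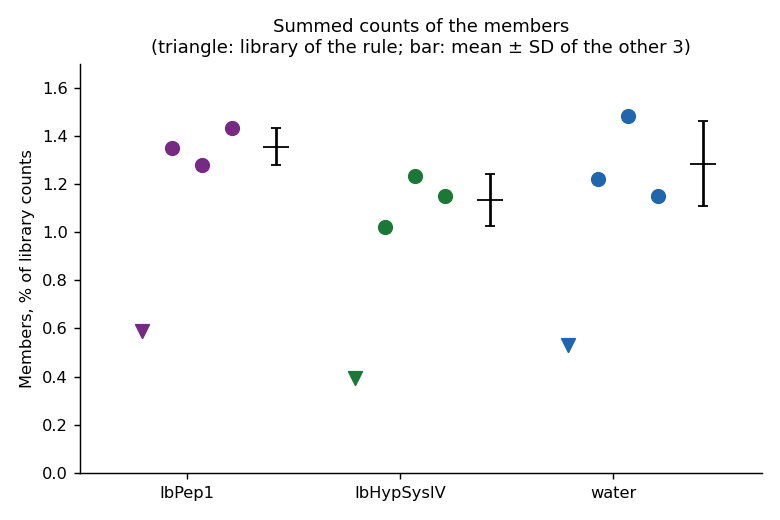
Share of each library's counts (percent, y axis) that fell in the 100 members, by treatment (x axis); triangles are the 3 libraries of the rule, circles the other 9, and bars the mean ± SD of the other 3 of a treatment. The triangles lie at 0.590%, 0.392% and 0.532%, below all circles, which lie between 1.02% and 1.48%.

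A pair of abundant members carried 40.6% of the members' summed mean CPM, and the 10 most abundant carried 78.7%. Without that pair the share was 0.320% in IbPep1 replicate 3, against 0.648% to 0.788% in the other IbPep1 libraries. It was 0.258% in IbHypSysIV replicate 4, against 0.619% to 0.799% in the other IbHypSysIV libraries. It was 0.313% in water replicate 3, against 0.692% to 0.911% in the other water libraries. In each treatment the library of the rule was again the lowest, and all 3 lay below the other 9. Each remaining member was also chosen as low there, so this follows largely from the rule. The IbPep1 and IbHypSysIV libraries of the other 9 then overlapped, so their separation in the full share did not hold without that pair. Of the pair, itf03g00720 lay apart, at 3376 to 3771 CPM in these IbPep1 libraries and 1529 to 2255 CPM in these IbHypSysIV libraries. The other, itf10g22630, overlapped, at 2526 to 2983 and 1975 to 2817 CPM in the same order.

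How far the members lay below differed between the 3 libraries. The median distance was -1.11 in IbPep1 replicate 3, -1.08 in IbHypSysIV replicate 4 and -1.30 in water replicate 3, which correspond to 2.15-fold, 2.11-fold and 2.47-fold lower. Relative to the median of all genes in the same library these distances were -1.25, -1.19 and -1.41. Water replicate 3 had the deepest value for 56 members, IbHypSysIV replicate 4 for 26 and IbPep1 replicate 3 for 18. It also had the longest tail: 21 members lay at least 2 below in water replicate 3, against 5 in IbHypSysIV replicate 4 and 2 in IbPep1 replicate 3.

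**Figure D2:**
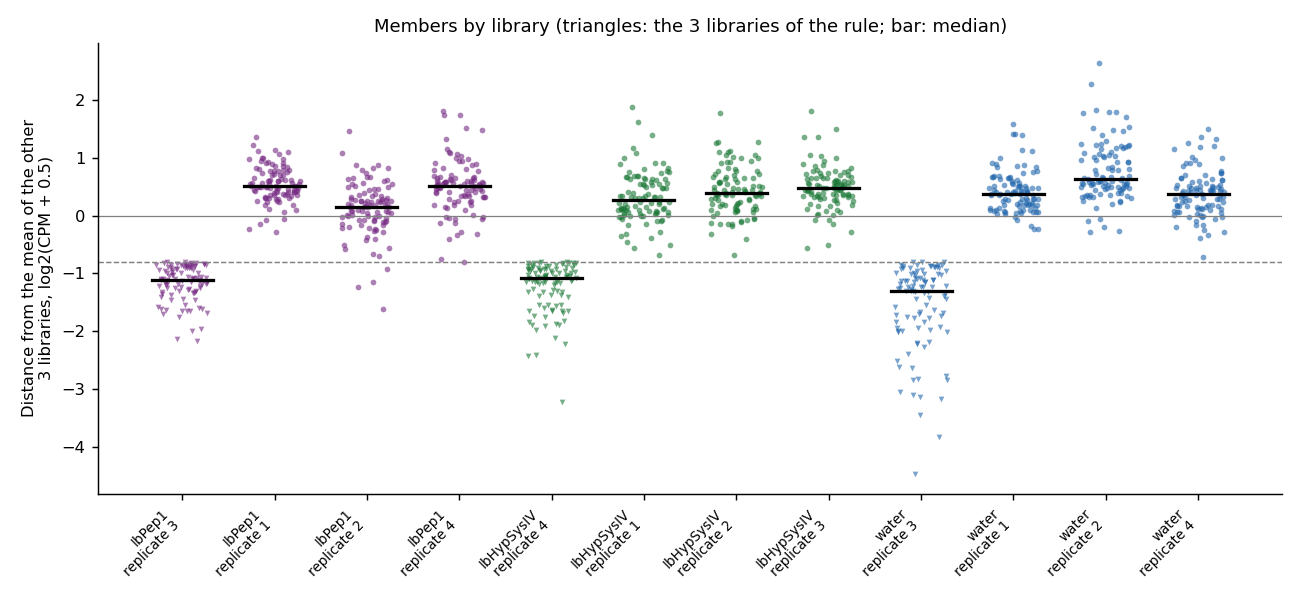
Distance of each of the 100 members (points) from the mean of the other 3 libraries of its treatment on the log2(CPM + 0.5) scale (y axis), by library (x axis); triangles mark the 3 libraries of the rule, bars are medians and the dashed line is the 0.8 limit. The medians of the 3 lie at -1.11, -1.08 and -1.30, and those of the other 9 between 0.15 and 0.63.

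The rule compares each library with a mean, so a member could still overlap with single libraries. IbPep1 replicate 3 lay below all 3 other IbPep1 libraries in 97 members, IbHypSysIV replicate 4 below its other 3 in all 100, and water replicate 3 below its other 3 in all 100. In 67 members all 3 libraries lay below all 9 others of the series, which 484 of the 20787 genes did. In 33 members the distance was at least 1 in each of the 3 libraries. At the limit, the member nearest inside was itf13g02940, at -0.80 in IbPep1 replicate 3, -0.95 in IbHypSysIV replicate 4 and -1.22 in water replicate 3. The gene nearest outside was itf06g16860, at -1.02, -2.32 and -0.79 in the same order. In all, 46 members had a least distance between 0.8 and 0.9 in size, and 74 other genes had one between 0.7 and 0.8, so the group has no natural edge.

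The members are 1 corner of a wider pattern. Of the 20787 genes, 14664 lay within 0.8 of their treatment in each of the 3 libraries, 1678 were low in 1 of them and high in none, and 546 were low in 2 and high in none. The opposite group, at least 0.8 above in each of the 3, was larger, with 260 genes or 1.25%. Those 260 genes took 1.31% to 1.85% of the counts in the 3 libraries and 0.372% to 0.686% in the other 9.

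Across the 20787 genes the distances of IbPep1 replicate 3 and IbHypSysIV replicate 4 had a Pearson r of 0.53 (Spearman rho 0.48). IbHypSysIV replicate 4 and water replicate 3 had an r of 0.42 (rho 0.42), and IbPep1 replicate 3 and water replicate 3 an r of 0.26 (rho 0.23). Each distance is measured within its own treatment, so no library is shared between a pair, but genes are not independent replicates and no p is given. By the correlations used below for the numbers in the titles, these pairs had 0.55, 0.43 and 0.26. All other pairs across treatments ran from -0.59 (IbHypSysIV replicate 3, IbPep1 replicate 3) to 0.53 (IbHypSysIV replicate 3, IbPep1 replicate 1). Values of this size were therefore not confined to the 3 libraries. The lists of low genes differ in length, at 971, 776 and 1608 genes for IbPep1 replicate 3, IbHypSysIV replicate 4 and water replicate 3, so the overlaps are given as shares of each. Genes low in both numbered 233 for IbPep1 replicate 3 and IbHypSysIV replicate 4 (24.0% and 30.0% of their low genes), 293 for IbHypSysIV replicate 4 and water replicate 3 (37.8% and 18.2%), and 338 for IbPep1 replicate 3 and water replicate 3 (34.8% and 21.0%).

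**Figure D3:**
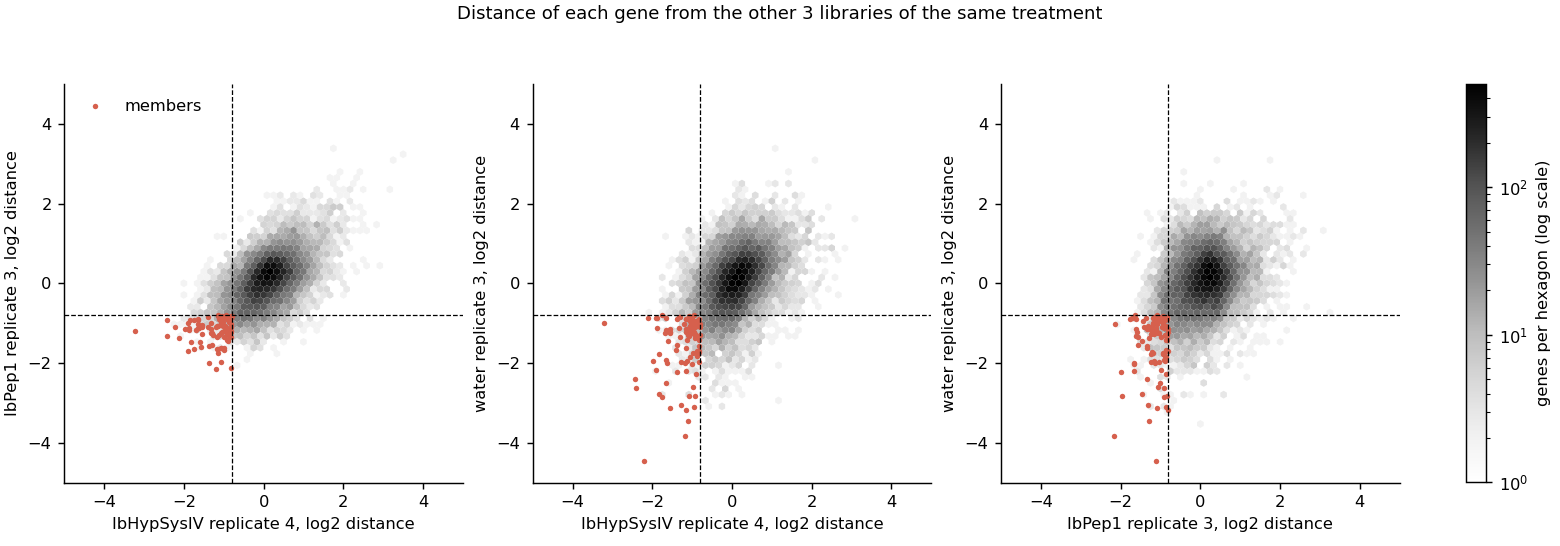
Distances of 20787 genes (grey hexagons, number of genes on a log scale) and of the 100 members (red points) in each pair of the 3 libraries, on the log2(CPM + 0.5) scale; dashed lines mark the 0.8 limit. All members lie in the lower left corner by the rule, and the cloud of all genes slopes upward in each pair, with r of 0.53, 0.42 and 0.26.

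The members spanned the range of expression. Their mean CPM ran from 1.08 to 2238, with a median of 11.3, against a median of 16.3 for the 20787 genes. CPM is not scaled to gene length, so an order of genes by CPM is an order of counts. By level, 31 members lay between 1 and 5 CPM, 27 between 5 and 20, 27 between 20 and 100, 13 between 100 and 1000, and 2 above 1000. These are 0.611%, 0.420%, 0.369%, 0.686% and 2.47% of all genes in each interval, the last resting on 81 genes. Counts were low for few members: in the 3 libraries, 5 values of 4 members were at or under the floor of 3 counts, which is 0.120 to 0.181 CPM depending on the library. The floor covers counting error only.

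The members were not gathered under 1 identifier code. Each identifier carries a two-digit code from 00 to 15, whose meaning the sources used here do not give, and all 16 codes held members. The share ran from 1 of 652 genes (0.153%) for code 00 to 9 of 1157 (0.778%) for code 07. Only 5 members lay within 50 identifier numbers of another on the same code, in 2 runs. The longer run held 3 members, from itf02g05180 to itf02g05240.

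The first member of that run, itf02g05180, had 0.993 CPM in IbPep1 replicate 3, against 3.56, 2.62 and 2.47 CPM in IbPep1 replicates 1, 2 and 4. It had 0.843 CPM in IbHypSysIV replicate 4, against 3.29, 5.22 and 3.23 CPM in IbHypSysIV replicates 1, 2 and 3. It had 2.22 CPM in water replicate 3, against 5.06, 6.57 and 6.23 CPM in water replicates 1, 2 and 4. The last of the run, itf02g05240, was likewise lowest in the same 3 libraries, at 1.04, 1.51 and 1.17 CPM, with 2.23 to 6.13 CPM in the other 9. The first and last members of the run had an r of 0.86 over the 12 libraries, which the rule raises. Over the 9 other libraries, after centring on their treatment means, the r was 0.83. The 2 members of the other run had an r of 0.71 over the 12 libraries and of -0.07 over the 9. All are descriptions over shared libraries.

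The member with the greatest mean distance was itf15g21870, which lay 2.59 below on average over the 3 libraries. It had 4.97 CPM in IbPep1 replicate 3, against 13.4, 6.24 and 16.8 CPM in IbPep1 replicates 1, 2 and 4. It had 5.54 CPM in IbHypSysIV replicate 4, against 31.5, 22.5 and 29.6 CPM in IbHypSysIV replicates 1, 2 and 3. It had 0.826 CPM in water replicate 3, from 19 counts, against 27.7, 43.3 and 19.7 CPM in water replicates 1, 2 and 4. The water library was thus 36.6-fold below the mean of the other 3 water libraries, whereas IbPep1 replicates 3 and 2 lay close together.

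The next was itf11g12750, at a mean distance of -2.39. It had 4.23 CPM in IbPep1 replicate 3, against 24.0, 20.2 and 18.3 CPM in IbPep1 replicates 1, 2 and 4. It had 11.0 CPM in IbHypSysIV replicate 4, against 21.7, 27.4 and 28.7 CPM in IbHypSysIV replicates 1, 2 and 3. It had 2.65 CPM in water replicate 3, against 47.1, 43.2 and 42.3 CPM in water replicates 1, 2 and 4. The other 3 libraries of each treatment were tight for this gene, at 20.8 ± 2.94, 25.9 ± 3.75 and 44.2 ± 2.56 CPM for IbPep1, IbHypSysIV and water (SD, n = 3). IbHypSysIV replicate 4 held its own extreme elsewhere: itf10g18310, picked after its values were seen, had 92.5 CPM there, against 689, 1247 and 759 CPM in IbHypSysIV replicates 1, 2 and 3.

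The most abundant member, itf03g00720, had 1279 CPM in IbPep1 replicate 3, against 3376, 3771 and 3472 CPM in IbPep1 replicates 1, 2 and 4. It had 629 CPM in IbHypSysIV replicate 4, against 2035, 1529 and 2255 CPM in IbHypSysIV replicates 1, 2 and 3. It had 911 CPM in water replicate 3, against 1996, 3177 and 2421 CPM in water replicates 1, 2 and 4. All 3 libraries lay below the other 9, by a similar amount, at 2.77-fold, 3.08-fold and 2.78-fold below the mean of the other 3 of their treatment. The second, itf10g22630, had 1423 CPM in IbPep1 replicate 3, 713 CPM in IbHypSysIV replicate 4 and 1283 CPM in water replicate 3. It had 1975 to 2983 CPM in the other 9, so its 3 low libraries were also the lowest of the series. No treatment contrast was called for itf10g22630 with or without the 3 libraries.

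**Figure D4:**
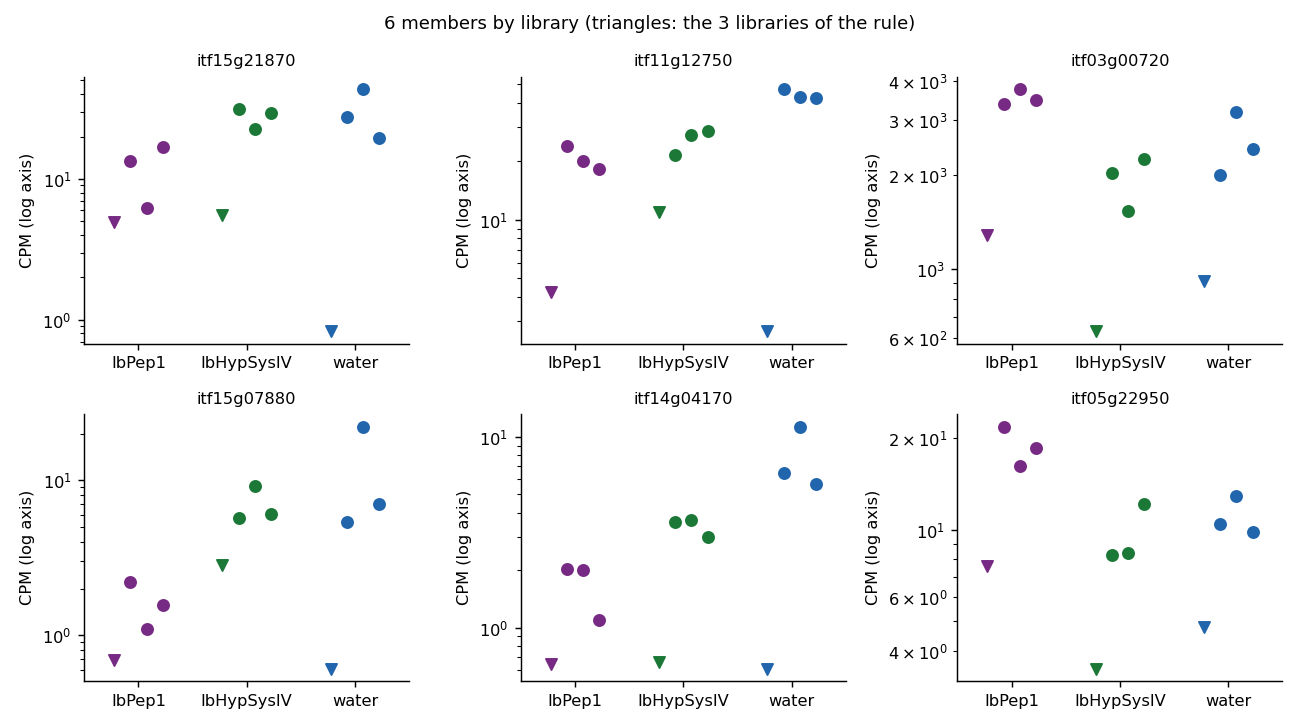
CPM (y axis, log scale) of 6 members in every library, by treatment (x axis); triangles are the 3 libraries of the rule and circles the other 9. For itf15g21870, itf11g12750 and itf15g07880 the water triangle lies far below the other water libraries, at 0.826, 2.65 and 0.609 CPM, while for itf03g00720 the 3 triangles lie at similar distances from their treatments.

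The members also varied more than other genes among the 9 libraries outside the rule. The median SD over the other 3 libraries, on the log2(CPM + 0.5) scale, was 0.26 for members and 0.16 for all 20787 genes in IbPep1. It was 0.29 for members and 0.24 for all genes in IbHypSysIV, and 0.24 for members and 0.16 for all genes in water. These differences are a description, with no test. Members had a lower median mean CPM than all genes (11.3 against 16.3), and the SDs were not compared at matched levels. Single libraries recurred: IbPep1 replicate 2 was the lowest of the 3 in 67 members (37.6% of all genes), IbHypSysIV replicate 1 in 51 (25.2%), and water replicate 2 was the highest of the 3 in 67 members (25.7%).

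The treatment contrasts ask which genes respond to each peptide within 1 h. The rule compared libraries within a treatment and did not use the differences between treatments, but it chose genes with a large spread within treatments, which is the error that these contrasts are tested against. With 12 libraries the calls therefore depend on the values that chose the members. The levels of the other 9 libraries did enter the rule as the reference for the distances, so the counts below are not fully independent of it. Contrasts were fitted over all genes with the quasi-likelihood test of edgeR, p-values were adjusted by the Benjamini-Hochberg method, and a member counts as called where the adjusted p is below 0.05. All 100 members were among the 23193 genes tested with 12 libraries and the 23122 tested without the 3 libraries of the rule.

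With all 12 libraries few members were called. Against water, IbPep1 gave 0 members higher and 3 lower, where 5.51% of all genes were called higher and 6.01% lower. IbHypSysIV gave 0 members in either direction, where 1.22% of all genes were called higher and 1.1% lower. DESeq2 and limma-voom also called 0 members for IbHypSysIV, 5 members had an unadjusted edgeR p under 0.05, and the smallest adjusted p of edgeR's quasi-likelihood test was 0.144. IbPep1 against IbHypSysIV gave 0 members higher and 1 lower, where 6.7% of all genes were called higher and 9.14% lower. The members' shares were below those of all genes in each contrast and direction, which the choice of genes with a large spread favours, so nothing is read from them.

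The standard errors were large in this fit. The median SE of a member's log2 fold change was 0.48 for IbPep1 against water, against 0.23 for all genes tested. Without the 3 libraries it was 0.25 for members and 0.21 for all genes. The median log2 fold change of the members was -0.52 for IbPep1 against water, -0.07 for IbHypSysIV against water and -0.38 for IbPep1 against IbHypSysIV, with 0.00 to 0.01 for all genes. These medians moved with single libraries: leaving out IbPep1 replicate 3 gave -0.30 for IbPep1 against water and -0.13 for IbPep1 against IbHypSysIV, and leaving out IbHypSysIV replicate 4 gave -0.64 for IbPep1 against IbHypSysIV. For IbHypSysIV against water the sign was not stable, at 0.18 without IbHypSysIV replicate 4, 0.12 without water replicate 2 and -0.35 without water replicate 3.

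The 3 members called lower with IbPep1 than in water were itf02g22310, itf03g27200 and itf15g07880, at adjusted p-values of 0.0434, 0.0383 and 0.0465 (edgeR, quasi-likelihood test). They are named because they are so few, after their values were seen, since in each the IbPep1 and water libraries overlapped through water replicate 3. Without water replicate 3 the number was 22, all lower. It was 0 on leaving out any 1 of water replicates 1, 2 and 4, of IbPep1 replicates 1, 3 and 4 or IbHypSysIV replicate 3, and 1 without IbHypSysIV replicate 1 or IbPep1 replicate 2.

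The member called in IbPep1 against IbHypSysIV with 12 libraries was itf02g22310. It had 6.12, 5.49, 3.24 and 7.45 CPM in IbPep1 replicates 1 to 4, against 12.8, 17.8, 15.5 and 8.43 CPM in IbHypSysIV replicates 1 to 4. The groups did not overlap, and the library of the rule was the lowest of its treatment in both. Its log2 fold change was -1.34 (SE 0.38, adjusted p = 0.0340 by edgeR's quasi-likelihood test). The call was lost, at adjusted p-values of 0.0674 to 0.0957, without IbHypSysIV replicate 2 or 3 or without IbPep1 replicate 1, 2 or 3. The number of members called in this contrast was 5 without water replicate 3, 2 without water replicate 2, IbHypSysIV replicate 4 or IbPep1 replicate 4, and 0 without any 1 of the 5 libraries just listed for the lost call.

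Without the 3 libraries of the rule the members' calls were mostly toward lower levels with IbPep1. Against water, 34 members were lower and 2 higher with IbPep1, where 14.3% of all genes were called lower and 14.1% higher. Against IbHypSysIV, 19 members were lower and 3 higher with IbPep1, where 12.6% of all genes were called lower and 11.3% higher. IbHypSysIV gave 7 members lower and 1 higher than water, where 2.24% of all genes were called lower and 2.74% higher. Among members the lower calls outnumbered the higher ones in each contrast, whereas among all genes the shares of the 2 directions were close. The libraries in this fit were the reference for the distances of the rule. The difference in direction, and that of the medians below, is therefore a description from which nothing more is read. Members were also chosen for lying far below their treatment in the 3 libraries that this fit leaves out. Leaving these out narrows the spread of the members by choice. Members' SEs and adjusted p-values without the 3 libraries, here and below, are therefore too small to stand as those of an ordinary test.

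The median log2 fold change of the members without the 3 libraries was -0.53 for IbPep1 against water, -0.35 for IbPep1 against IbHypSysIV and -0.11 for IbHypSysIV against water, with 0.01, 0.02 and 0.00 for all genes. It was below 0 for 77 members in IbPep1 against water, where 49.4% of all genes were below 0. It was below 0 for 70 members in IbPep1 against IbHypSysIV (48.3% of all genes) and for 65 in IbHypSysIV against water (50.4%). Of the members called lower, 19 were at least 2-fold lower with IbPep1 than in water and 12 than with IbHypSysIV. With IbHypSysIV, 2 were at least 2-fold lower than in water. The shares of all genes at this fold were not taken, so nothing is read from these counts. The IbHypSysIV median changed sign without water replicate 2, at 0.02.

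Single libraries among the 9 decided some of these counts. For IbPep1 against water the count of 36 ranged from 24 to 41 when each was left out. For IbPep1 against IbHypSysIV the count of 22 became 11 without IbHypSysIV replicate 3 and 12 without IbPep1 replicate 2. For IbHypSysIV against water the count of 8 became 2 without water replicate 1, 1 without either of water replicates 2 and 4, 0 on leaving out IbHypSysIV replicate 3, and 5 on leaving out IbPep1 replicate 1.

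**Figure D5:**
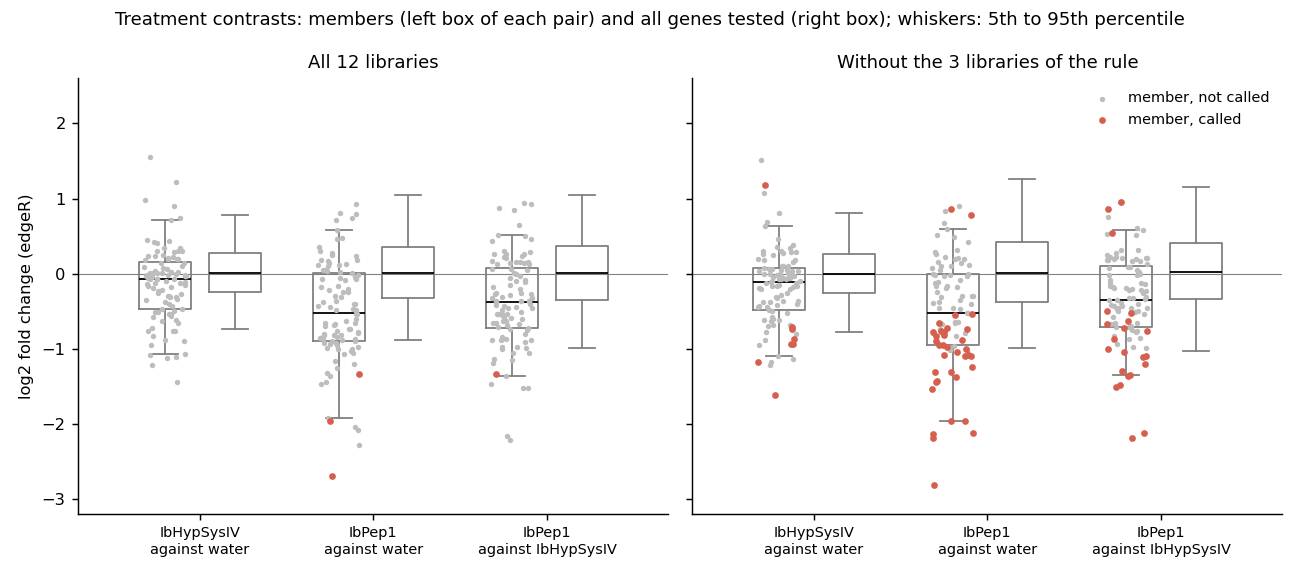
Log2 fold changes (y axis, edgeR) in the 3 treatment contrasts (x axis), with all 12 libraries (left panel) and without the 3 libraries of the rule (right panel). In each pair the left box holds the 100 members, with points in red where called, and the right box all genes tested; whiskers span the 5th to 95th percentile. The median of the members lies at -0.52 for IbPep1 against water with 12 libraries and -0.53 without the 3, where called points number 3 and 36.

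In all, 43 members were called in at least 1 of the 3 contrasts without the 3 libraries and 57 in none. There were 15 members lower with IbPep1 both than in water and than with IbHypSysIV, and the 2 contrasts share the IbPep1 libraries. There were 7 members lower with both peptides than in water, and these contrasts share the water libraries. For these counts of members the shares over all genes were not taken, so nothing is read from them. The 34 members called lower with IbPep1 than in water lay deeper in water replicate 3 than the other 66, at a median distance of -1.69 against -1.20. In IbPep1 replicate 3 the medians were -1.09 for the 34 and -1.11 for the 66, and in IbHypSysIV replicate 4 they were -1.12 and -1.07. The distance in water replicate 3 and the contrast are both measured from the same 3 water libraries, so a high level there lengthens both, and no test is given. In 83 members water replicate 3 lay below IbPep1 replicates 1, 2 and 4. Nothing is read from this count, since the rule chose members low there and no share over all genes was taken. Across the 20787 genes the distance in water replicate 3 was set against the difference between the other IbPep1 and the other IbHypSysIV libraries. The Pearson r was 0.43, and the 2 measures share no library. Whether the label of water replicate 3 is right was not tested, and this bears on every contrast with water that uses all 12 libraries. The r of the distance in IbHypSysIV replicate 4 with the difference between the other IbPep1 and water libraries was 0.25, and that of IbPep1 replicate 3 with the difference between IbHypSysIV and water was 0.14.

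The largest fall among the members called with IbPep1 against water was that of itf15g07880. It had 2.22, 1.11 and 1.57 CPM in IbPep1 replicates 1, 2 and 4, against 5.36, 22.2 and 7.06 CPM in water replicates 1, 2 and 4. The groups did not overlap, and water replicate 2 was far above the other 2. The log2 fold change was -2.82 (SE 0.54, adjusted p = 0.00577 by edgeR's quasi-likelihood test without the 3 libraries), and without water replicate 2 it was -1.91 (adjusted p = 0.0143 by the same test). With IbHypSysIV it had 5.71, 9.24 and 6.10 CPM, above all 3 IbPep1 values, and IbPep1 against IbHypSysIV gave -2.13 (SE 0.54, adjusted p = 0.0187 by the same test). The call against IbHypSysIV was lost without IbHypSysIV replicate 2 (adjusted p = 0.0577 by the edgeR test) or IbPep1 replicate 2 (adjusted p = 0.0630 by the edgeR test). With 12 libraries that contrast was not called, at -2.16 (SE 0.79, adjusted p = 0.0779 by the edgeR test). In the 3 libraries of the rule itf15g07880 had 0.691 CPM with IbPep1, 2.83 CPM with IbHypSysIV and 0.609 CPM with water, so its water library lay below every IbPep1 value.

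The other member named for a lower level with IbPep1 was itf14g04170. It had 2.02, 2.01 and 1.09 CPM in IbPep1 replicates 1, 2 and 4, against 6.49, 11.3 and 5.68 CPM in water replicates 1, 2 and 4. The groups did not overlap. The log2 fold change was -2.19 (SE 0.33, adjusted p = 0.00228 by edgeR's quasi-likelihood test without the 3 libraries), and the call held in all 16 alternatives to that fit, at adjusted p-values of up to 0.0395. With 12 libraries the value was -2.09 (SE 0.72, adjusted p = 0.0725 by the same test). In the 3 libraries of the rule the gene stood at 0.648 CPM with IbPep1, 0.662 CPM with IbHypSysIV and 0.609 CPM with water, from 15, 11 and 14 counts.

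A higher level with IbPep1 than in water was called for itf08g14460 and itf05g22950. The first, itf08g14460, had 60.3, 45.7 and 61.4 CPM in IbPep1 replicates 1, 2 and 4, against 38.2, 30.6 and 23.1 CPM in water replicates 1, 2 and 4. The log2 fold change was 0.87 (SE 0.24, adjusted p = 0.0246 by edgeR's quasi-likelihood test without the 3 libraries). The groups did not overlap, but the call was lost without water replicate 2 or 4 or IbPep1 replicate 1 or 4, at adjusted p-values of 0.0647 to 0.0955 by the edgeR test. With 12 libraries itf08g14460 was not called, at 0.79 (SE 0.49, adjusted p = 0.281 by the edgeR test).

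The second, itf05g22950, had 21.9, 16.2 and 18.6 CPM in IbPep1 replicates 1, 2 and 4, against 8.26, 8.42 and 12.1 CPM in IbHypSysIV replicates 1 to 3 and 10.4, 12.9 and 9.81 CPM in water replicates 1, 2 and 4. Both other treatments lay below all 3 IbPep1 libraries. The log2 fold change was 0.77 against water (SE 0.20, adjusted p = 0.0175) and 0.96 against IbHypSysIV (SE 0.20, adjusted p = 0.00896), both by edgeR's quasi-likelihood test without the 3 libraries. The call against water was lost without water replicate 1 or 4 or IbPep1 replicate 1, at adjusted p-values of 0.0550 to 0.0778 by the edgeR test. With 12 libraries neither contrast was called for itf05g22950, at adjusted p-values of 0.240 against water and 0.139 against IbHypSysIV by the edgeR test. In the 3 libraries of the rule it had 7.60 CPM with IbPep1, 3.49 CPM with IbHypSysIV and 4.78 CPM with water. The rule used these values, so their order adds nothing to the calls.

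Between the peptides, the abundant member itf03g00720 was also higher with IbPep1. Its other 3 libraries averaged 3540 ± 206 CPM with IbPep1 and 1939 ± 372 CPM with IbHypSysIV (SD, n = 3 each), with no overlap. The log2 fold change was 0.86 (SE 0.20, adjusted p = 0.0122 by edgeR's quasi-likelihood test without the 3 libraries). With 12 libraries it was 0.85 (SE 0.48, adjusted p = 0.234 by the same test), so the size was similar and the SE larger. The largest fall was that of itf11g04440, with 3.37, 0.503 and 5.46 CPM in IbPep1 replicates 1, 2 and 4, against 14.6, 11.5 and 16.4 CPM in IbHypSysIV replicates 1 to 3. Its log2 fold change was -2.19 (SE 0.52, adjusted p = 0.0150 by the same test without the 3 libraries), or -2.88 without IbPep1 replicate 4. With 12 libraries this gene was not called, at -2.22 (SE 0.74, adjusted p = 0.0587 by the same test). Its water libraries, at 4.48, 6.17 and 4.31 CPM, overlapped with those of IbPep1.

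For IbHypSysIV against water the 1 member called higher was itf01g26580. It had 17.8, 16.4 and 28.4 CPM in IbHypSysIV replicates 1 to 3, against 11.1, 9.14 and 7.79 CPM in water replicates 1, 2 and 4. The groups did not overlap, and the log2 fold change was 1.18 (SE 0.25, adjusted p = 0.0278 by edgeR's quasi-likelihood test without the 3 libraries). The call was lost without any 1 of these water libraries or IbHypSysIV replicate 3, at adjusted p-values of 0.0521 to 0.111 by the edgeR test. With 12 libraries the gene was not called, at 1.22 (SE 0.43, adjusted p = 0.144 by the edgeR test).

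The members named for a lower level with IbHypSysIV were itf03g01460 and itf03g27200. The first, itf03g01460, had 4.69, 2.18 and 2.47 CPM in IbHypSysIV replicates 1 to 3, against 10.2, 6.67 and 11.6 CPM in water replicates 1, 2 and 4. Its log2 fold change was -1.62 (SE 0.30, adjusted p = 0.0187 by edgeR's quasi-likelihood test without the 3 libraries), lost without water replicate 1 or 4 or IbHypSysIV replicate 3 at adjusted p-values of 0.0538 to 0.0884. With 12 libraries the gene was not called, at -1.45 (SE 0.60, adjusted p = 0.203 by the same test). Without the 3 libraries, neither this gene nor the next overlapped between the groups.

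The second, itf03g27200, had 56.1, 43.9 and 44.9 CPM in IbHypSysIV replicates 1 to 3, against 95.3, 139 and 96.4 CPM in water replicates 1, 2 and 4. Its log2 fold change was -1.18 (SE 0.29, adjusted p = 0.0423 by edgeR's quasi-likelihood test without the 3 libraries). The call was lost on leaving out any 1 of those 6 libraries or IbPep1 replicate 1, at adjusted p-values of 0.0585 to 0.156 by the edgeR test. With IbPep1 the same gene had 26.3, 42.3 and 16.4 CPM and was also called lower than in water, with -1.96 on the log2 scale (SE 0.29, adjusted p = 0.00230 by the same test). IbPep1 against IbHypSysIV was not called for it, at -0.78 (SE 0.29, adjusted p = 0.0701 by the same test). With 12 libraries, IbHypSysIV against water was not called for itf03g27200, at -1.07 (SE 0.53, adjusted p = 0.278 by the edgeR test).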

How the data were processed

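Messenger RNA of 12 sweet potato leaf libraries was analysed, 4 per treatment. The deposited values are raw counts per gene identifier in 1 column per library, with 32301 identifiers. The submitters' processing notes list the tools HISAT2 2.0.5, HTSeq 0.6.1 and DESeq2 1.22.2. Nothing in the sources used here gives the genome build, the annotation or the strand setting. Per the labels' protocols RNA was extracted with TRIzol, and both a NEBNext Ultra and a SMARTER kit are named, without saying which library used which.

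Total counts were 16607188 to 25073251 per library, so 3 counts, the floor, equal 0.120 to 0.181 CPM. CPM were counts over the column total, and the pseudocount was 0.5 (pandas 2.3.3, Python 3.11.15). Contrasts used edgeR 4.0.16 in R 4.3.3: filterByExpr, TMM factors, glmQLFit with treatment as the only term, and glmQLFTest with Benjamini-Hochberg adjustment over all genes tested. All 3 treatments entered 1 model. The rule and the fits were first tested on simulated counts with known changes, of which no value is reported. The biological coefficient of variation was 27.2%, and 19.9% without the 3 libraries of the rule.

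Alternatives were DESeq2 1.42.0, limma-voom 3.58.1, other scalings, no filter, only the 2 groups compared, a replicate block, each library left out, and the 3 libraries of the rule left out together. The alternatives to this last fit were chosen after seeing the data. The members and lists were chosen with earlier results of these data known. Identifiers were named by rule: the 2 members with the greatest mean distance, the 2 with the highest mean CPM, per contrast the 2 members with the largest fold change each way, if called, with a mean of at least 1 CPM and no overlap between groups, the nearest on either side of the limit, and the ends of the longest run. Applying this rule to the fit without the 3 libraries was decided after the calls of the 12 libraries were seen. No identifier could be matched to a gene name, so lists by product and leaf markers were not used.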

Additional observations from a re-analysis of the deposited data

Results flagged for a closer look

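Of 51 groups of 4 libraries tested for a single library far from the rest, 2 were flagged, where chance flags about 1 in 20. In IbPep1, itf03g00720 had 1279 CPM in replicate 3, and the gap to the next library was 0.842 of the range of the 4. In water, itf11g12750 had 2.65 CPM in replicate 3, with a gap of 0.892 of the range. Both are libraries of the rule that chose these genes as low there, so the flags restate the choice.

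The peptides differed for 5 named members by the direct contrast of IbPep1 with IbHypSysIV. The log2 fold change of itf02g22310 was -1.34 with 12 libraries. Without the 3 libraries of the rule it was 0.96 for itf05g22950, 0.86 for itf03g00720, -2.19 for itf11g04440 and -2.13 for itf15g07880. Of these members, only itf02g22310 was called in this contrast with 12 libraries.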

How the results depend on the processing

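Membership depended on the settings of the rule. In place of 100, TMM-scaled CPM gave 162 genes and DESeq2 size factors 168, each holding all 100. A pseudocount of 2 gave 51, comparison with the lowest of the other 3 libraries 21, a distance of 1.0 gave 33 and one of 0.6 gave 274. Leaving out each of the other 9 libraries in turn gave 90 to 113.

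For IbHypSysIV against water, 0 members were called, 0 to 1 with 1 library left out and 8 without the 3 libraries of the rule. For IbPep1 against water, 3 were called, 0 to 22 with 1 library left out, 36 without the 3 libraries, 7 by DESeq2, 1 by limma-voom and 0 when the fit held just the 2 groups. For IbPep1 against IbHypSysIV, 1 was called, 0 to 5 with 1 library left out, 22 without the 3 libraries, 4 by DESeq2, 2 by limma-voom and 3 when the fit held just the 2 groups. Without the 3 libraries, IbHypSysIV against water ranged from 0 to 9 with a further library left out and gave 15 by DESeq2, and IbPep1 against IbHypSysIV ranged from 11 to 28. The causes were not tested.

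Numbers in the titles are shared between treatments, but 7 same-numbered pairs had correlations of -0.12 to 0.15, 2 of them over 0.1, so the numbers were not taken as pairs. With them as a replicate block, 0, 23 and 4 members were called for IbHypSysIV against water, IbPep1 against water and IbPep1 against IbHypSysIV, and 0, 7 and 0 without the 3 libraries. Of 196 alternative values for named members, 157 kept their call, 39 lost it and 0 changed sign.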
